A study of Mus musculus with 18 samples.

Results

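The tumors compared here were the 5 with the most and the 5 with the least Cyp2e1 mRNA among 11 advanced Alb-R26Met liver tumors, and they made up 10 of the 18 samples of the series. Cyp2e1 encodes an ethanol- and drug-oxidizing cytochrome that healthy livers make around the central vein. To rank the tumors, the genes Siglece and Gm26917 were dropped, each sample was rescaled to 1000000, and Cyp2e1 was read from the result (rescaled TPM, a share of all transcripts per gene length). Tumor 2 was not ranked, because Siglece took 82.9% of its deposited total. Cyp2e1 itself chose the groups, so its own difference between them is a description and was not tested. The slope tests below reuse its values as the predictor of other genes.

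The series holds bulk poly-A RNA-seq of 12 tumors and of 6 non-tumoral livers from mice without tumors, from 17 mice in all. Every sample, livers included, came from F1 C57:129Sv males with the genotype Alb-R26Met, in which Cre driven by the Alb promoter removes a stop cassette before a chimeric mouse-human Met transgene at the Rosa26 locus. The livers therefore carry the transgene too, and recombination is limited to cells that have used the Alb promoter. Mice were 49 to 67 weeks old (median 59) for the Cyp2e1-high tumors, 49 to 72 weeks (median 68) for the Cyp2e1-low tumors and 52 to 71 weeks (median 56.5) for the livers, and no treatment is given for them. Tumor 12 of the high group and tumor 11 of the low group came from 1 mouse, so the 10 tumors came from 9 mice. Each group held 3 tumors with the tag E19 and 2 with the tag E20 in their labels, a tag whose meaning is not given in the sources used here.

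Hepatocytes along the liver plate do different work: those near the central vein make glutamine, oxidize drugs and synthesize bile acids, whereas those near the portal vein make urea and glucose. Wnt ligands and R-spondins from central vein endothelium keep β-catenin active in pericentral cells, where it acts with TCF/LEF factors on genes such as Glul, Oat, Axin2 and Notum. Cyp2e1 is a classical pericentral gene that depends on β-catenin, and liver tumors with active β-catenin often keep or raise pericentral genes and lose periportal ones.

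Promoters are shown for Cyp2e1 and for 3 genes that followed it closely across tumors, because the pericentral program is defined by factors that bind DNA. They come from RefSeq on GRCm38.p6 and span 250 bases before to 50 after the start site. Capitals mark the letters CTTTGAT or CTTTGAA of a TCF/LEF site on either strand.
Cyp2e1, chr7:140763569-140763868, plus strand: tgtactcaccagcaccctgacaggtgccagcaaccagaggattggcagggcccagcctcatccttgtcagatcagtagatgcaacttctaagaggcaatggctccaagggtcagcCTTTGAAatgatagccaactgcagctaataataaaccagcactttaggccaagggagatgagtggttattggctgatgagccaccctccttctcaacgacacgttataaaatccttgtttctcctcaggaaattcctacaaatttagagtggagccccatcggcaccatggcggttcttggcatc
Cyp1a2, chr9:57683606-57683905, minus strand: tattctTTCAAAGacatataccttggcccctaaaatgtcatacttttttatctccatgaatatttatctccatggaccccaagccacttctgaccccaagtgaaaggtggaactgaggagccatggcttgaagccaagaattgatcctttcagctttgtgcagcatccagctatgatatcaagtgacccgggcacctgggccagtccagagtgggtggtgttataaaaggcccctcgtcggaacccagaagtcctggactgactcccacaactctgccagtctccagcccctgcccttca
Cyp2c37, chr19:39992174-39992473, plus strand: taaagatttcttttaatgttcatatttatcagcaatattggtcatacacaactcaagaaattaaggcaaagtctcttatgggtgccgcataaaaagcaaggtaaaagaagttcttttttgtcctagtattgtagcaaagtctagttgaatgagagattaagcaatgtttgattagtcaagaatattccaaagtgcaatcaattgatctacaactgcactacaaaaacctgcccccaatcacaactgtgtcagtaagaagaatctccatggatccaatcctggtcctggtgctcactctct
Oat, chr7:132576349-132576648, minus strand: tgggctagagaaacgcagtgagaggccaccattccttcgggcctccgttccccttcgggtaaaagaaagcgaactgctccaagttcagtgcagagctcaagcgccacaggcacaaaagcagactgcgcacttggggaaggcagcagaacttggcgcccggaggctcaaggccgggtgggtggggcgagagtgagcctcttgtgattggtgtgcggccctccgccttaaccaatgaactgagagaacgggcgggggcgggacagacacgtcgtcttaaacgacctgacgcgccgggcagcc

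The Cyp2e1 promoter held 1 match, which began 135 bases before the start site, and that of Cyp1a2 held 1, which began 244 bases before it. The windows of Cyp2c37 and Oat held none. Such letters occurred in 8.65% of 32851 promoters of this length. The HNF4 letters CAAAGTCCA, found in 0.475% of them and sharing 5 letters with a TCF/LEF site on the other strand, were in none of the 4 windows. Rgn had no entry in the table.

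Cyp2e1 measured 5075, 1925, 1452, 977 and 553 in tumors 10, 8, 4, 12 and 3, which formed the high group. Tumor 7 lay between the groups with 406, and the low group, tumors 9, 5, 6, 11 and 1, measured 368, 357, 240.5, 199 and 106. Thus tumor 3, the lowest of the high group, stood near tumor 7, and tumors 7, 9 and 5 stood close together. The 6 livers measured between 2014 and 5019, with a median of 3955. Tumor 10 reached the level of the highest liver, tumor 8 fell just under the lowest liver, and all other ranked tumors were lower. Values of other genes are given below in the same order of tumors for each group, and for livers as the lowest, the median and the highest.

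**Figure D1:**
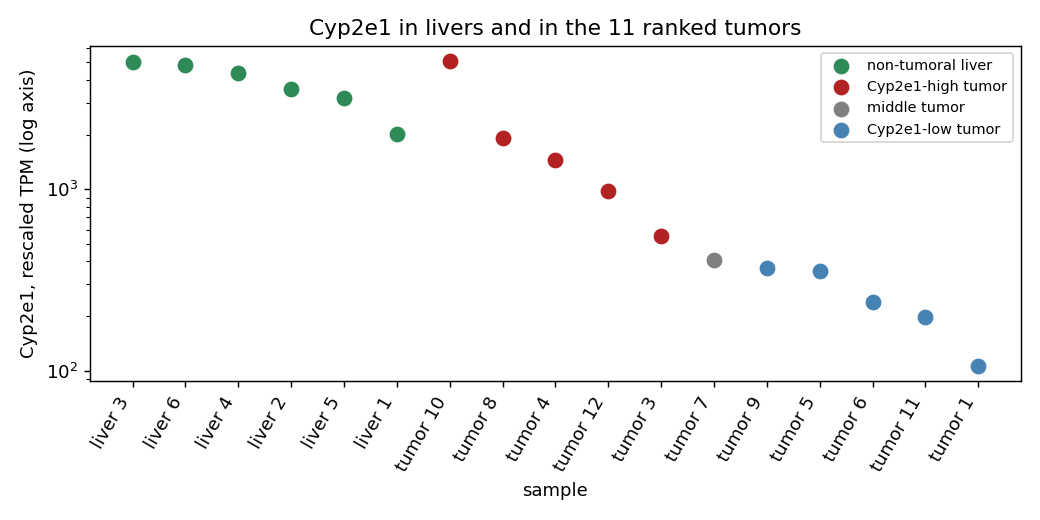
Cyp2e1 in rescaled TPM (vertical log axis) in each of 6 livers and 11 ranked tumors (horizontal axis), 1 point per sample, colored by group. Livers lie between 2014 and 5019, and tumors descend from 5075 in tumor 10 to 106 in tumor 1, with the middle tumor 7 at 406.

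All 10 tumors kept hepatocyte mRNAs. Alb, the main plasma protein of hepatocytes, measured 46796, 65179, 73387, 80045 and 86643 in the high group and 90064, 73172, 65121, 83016 and 88124 in the low group, against 35685, 47272 and 52497 in livers. Hnf4a, a factor that defines hepatocytes, measured 73.5, 104, 58.9, 84 and 69.6 and 65.7, 65.1, 105, 63.6 and 123, so the groups overlapped in both genes. Over the 22 tested genes of the hepatocyte identity list, the median log2 fold change of high against low tumors was 0.08, beside 0.016 over all genes. In bulk samples such as these, fewer cells of a type and less RNA per cell cannot be told apart.

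Tumor 10 stood apart from the other Cyp2e1-high tumors. Its Glul, the glutamine synthetase of the last hepatocytes around the central vein, measured 12543, against at most 599 in any other ranked tumor and 756 in any liver. Cyp2f2, a cytochrome of periportal hepatocytes, and Aldh1b1 were listed at 0 there. Tumor 10 also had the highest macrophage marker sum of its group (759, with a group median of 369), and was the sole ranked tumor with the mast cell proteases Cpa3 (16.3) and Cma1 (14.3). Values without it are given beside the results it bears on most.

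Did other genes follow Cyp2e1? Between the 5 high and the 5 low tumors, limma with Benjamini-Hochberg adjustment called 0 of 12466 genes (0%), while 641 (5.14%) had an unadjusted p under 0.05. In 63 genes (0.505%) every high tumor lay above every low tumor, and in 37 (0.297%) below. Without tumor 10, 131 of 12313 genes (1.06%) had every high tumor above. A smaller group is separated more readily by chance, so this share cannot be set against that of the 63 genes. The share expected by chance was not computed, so lack of overlap is given below as a description and not as a result. When log2 Cyp2e1 was instead used as a continuous measure over the 11 tumors, 49 of 12509 genes (0.392%) passed, of which 42 (0.336%) rose and 7 (0.0560%) fell with Cyp2e1. Without tumor 10, 28 of 12364 (0.226%) passed, 25 rising (0.202%) and 3 falling (0.0243%). A slope of 1 means that a gene changed by as many log2 units as Cyp2e1.

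Within each tag the groups were compared again, with 0 genes called in E19 tumors (441 with an unadjusted p under 0.05) and 0 in E20 tumors (1066). The median log2 fold change of Wnt targets was 1.95 in E19 and 1.23 in E20 tumors, that of pericentral enzymes 0.997 and 0.81, and that of periportal genes -0.88 and -0.04. Tumor 10 has the tag E19, so the E20 comparison lacks it, and the tag and this tumor cannot be told apart here. The median age was higher in the low group, and with age as a covariate limma called 0 genes (622 with an unadjusted p under 0.05). Siglece took 21.5% to 36.6% of the totals of high tumors and 23.7% to 53.4% of those of low tumors.

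Among 16 Wnt targets, 14 could be tested, and 5 of them, Glul, Oat, Slc1a2, Rgn and Notum, rose with Cyp2e1, beside 0.336% of all genes. This list and that of pericentral enzymes below were chosen with earlier results of these data known. Their shares therefore give no independent support. The median log2 fold change of the 14 was 1.63, and 0.71 without tumor 10. In 3 of them every high tumor lay above every low tumor, beside 0.505% of all genes. Without tumor 10, the slopes of Glul, Oat and Rgn passed, and 3 genes again had every high tumor above, beside 1.06% of all genes. None of the 14 passed in the comparison of the groups.

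Rgn (chrX:20549766-20562089), regucalcin, a calcium-binding enzyme of vitamin C synthesis, measured 1249, 382, 251, 164 and 113 in the high group and 111, 97.7, 80.8, 45.8 and 26.6 in the low group, with 196, 552 and 751 in livers. Every high tumor lay above every low tumor, though tumors 3 and 9 nearly met. Its slope on Cyp2e1 was 0.90 ± 0.06 (SE, adjusted p = 2.0e-05 by limma), and 0.82 without tumor 10 (adjusted p = 5.8e-04). The difference between the groups was 2.19 ± 0.59 on the log2 scale (SE, adjusted p = 0.96). Its order over the 11 tumors was almost that of Cyp2e1, with Spearman's rho 0.99, all measures coming from the same libraries.

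Glul (chr1:153899929-153909723) measured 12543, 599, 312, 262 and 192 in the high tumors and 171, 231, 88.3, 158 and 41.5 in the low tumors, against 392, 693 and 756 in livers. The groups overlapped, since tumor 5 of the low group lay above tumor 3. The slope was 1.16 ± 0.16 (SE, adjusted p = 0.0059), and 0.72 without tumor 10 (adjusted p = 0.016), so the gene passed in both.

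Oat (chr7:132557475-132576398), ornithine aminotransferase, which feeds glutamate to Glul, measured 788, 52.2, 64.2, 42.8 and 22.6 in the high tumors, 13.8, 37.4, 9.39, 12.7 and 3.32 in the low tumors and 143, 182 and 283 in livers. Apart from tumor 10, every tumor lay below the lowest liver. Its slope was 1.12 ± 0.12 (SE, adjusted p = 0.0012) and 0.86 without tumor 10 (adjusted p = 0.013). Lhpp (chr7:132610615-132706420), a phosphatase gene beside Oat on the chromosome, rose too, with a slope of 0.97 ± 0.17 (SE, adjusted p = 0.029), but not past the threshold without tumor 10 (adjusted p = 0.097).

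Slc1a2 (chr2:102658239-102790784), the glutamate transporter of pericentral cells, measured 931, 37, 21.4, 39.4 and 15 in the high tumors and 10.4, 4.88, 5.64, 12.7 and 0 in the low tumors, without overlap, and 36, 62.8 and 133 in livers. Notum (chr11:120653788-120661193), a secreted enzyme that inactivates Wnt proteins, measured 143, 23.6, 8.92, 12 and 5.64 and 3.46, 4.88, 3.76, 2.55 and 3.32, again without overlap, and 26.7, 36.5 and 76.9 in livers. Slopes were 1.37 ± 0.18 for Slc1a2 (SE, adjusted p = 0.0037) and 0.86 ± 0.12 for Notum (SE, adjusted p = 0.0059). Without tumor 10 their adjusted p were 0.052 and 0.061, just above 0.05.

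Feedback genes of the Wnt pathway were low in most tumors. Axin2, part of the complex that degrades β-catenin, measured 71.5, 6.73, 1.78, 1.71 and 0 in the high tumors and 0, 1.63, 3.76, 0 and 0 in the low tumors, with 3.57, 7.49 and 26.2 in livers. Nkd1, another antagonist, measured 204, 5.05, 1.78, 3.43 and 1.88 and 1.73, 1.63, 0, 2.55 and 0. Both were high in tumor 10 alone, and neither slope passed (adjusted p = 0.11 and 0.094). The R-spondin receptor Lgr5 and the factor Sp5 were too low to be tested between the groups. Lgr5 measured 18.4, 1.68, 0, 1.71 and 0 in the high tumors and was listed at 0 in all 5 low tumors, and Sp5 measured 34.7 in tumor 10 and was listed at 0 in the other 9. Rspo3, an R-spondin of the central vein endothelium, was listed at 0 in every low tumor and measured 0, 3.36, 1.78, 1.71 and 0 in the high tumors, against 1.78, 3.46 and 6.54 in livers. The ammonium transporter Rhbg measured 141 in tumor 10 and between 5.05 and 5.64 in the other high tumors, within reach of 3.46, 6.51, 1.88, 2.55 and 1.66 in the low group.

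**Figure D2:**
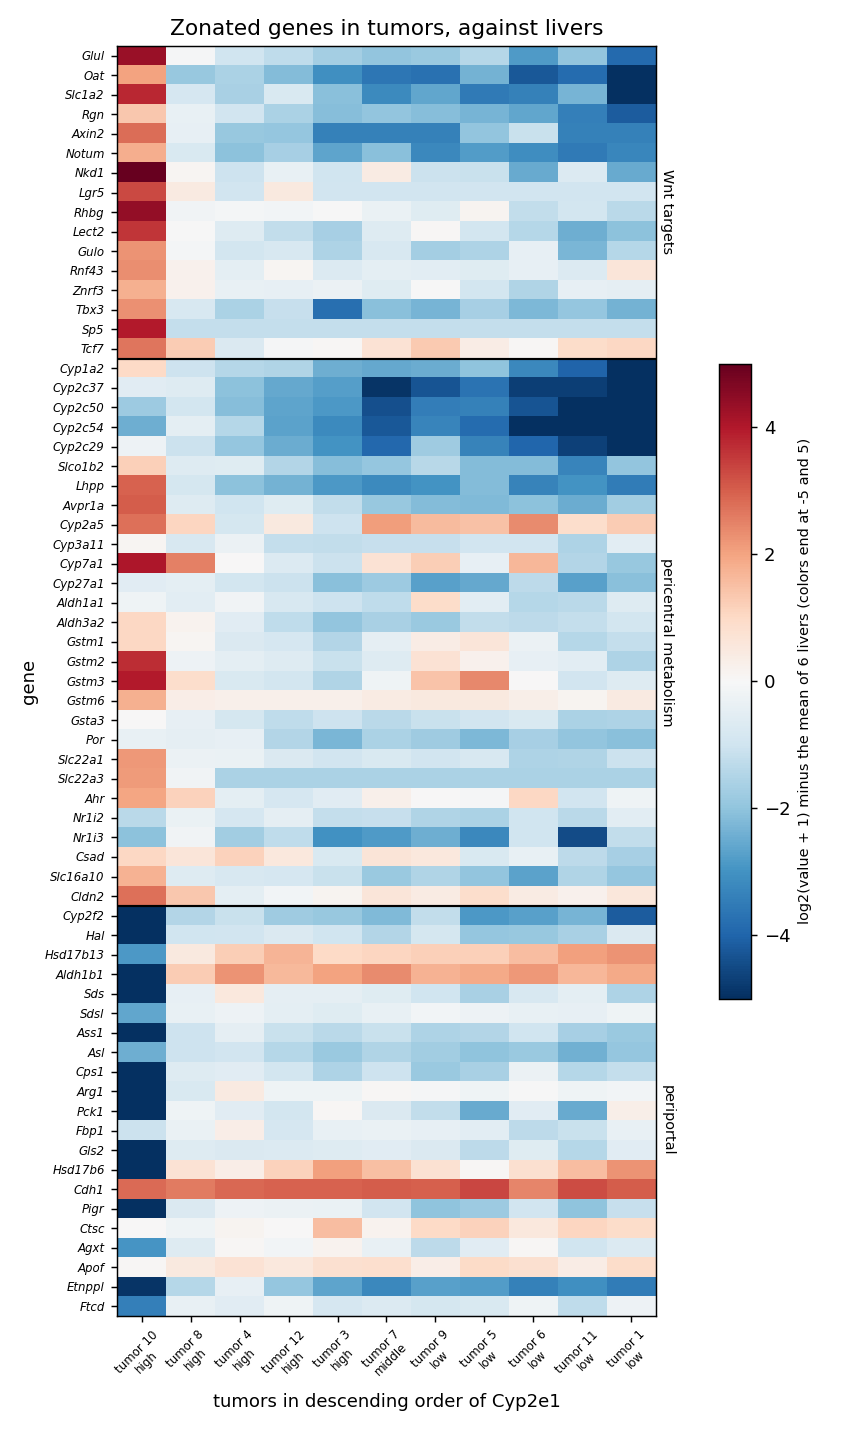
Color gives log2(value + 1) of a gene (rows, 3 lists) in a tumor (columns, descending Cyp2e1) minus the mean of the 6 livers, with colors ending at -5 and 5. Tumor 10 is red over the Wnt targets and blue over most periportal genes, while the Cyp2c genes grow bluer from tumor 8 to tumor 1.

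Pericentral enzymes and transporters that were not counted as Wnt targets were 28, of which 27 were tested. Of these, 10 rose with Cyp2e1, against the same 0.336% of all genes, and 5 did so without tumor 10: Cyp1a2, Cyp2c29, Cyp2c37, Cyp2c50 and Cyp2c54. Their median log2 fold change between the groups was 0.95, and 0.60 without tumor 10. In 5 genes every high tumor lay above every low tumor, with and without tumor 10, beside 0.505% and 1.06% of all genes. Another 2 genes, Cyp2a5 and Gstm3, had a negative log2 fold change.

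Cyp2c37 (chr19:39992424-40012243), a cytochrome that oxidizes fatty acids and drugs, measured 151, 143, 53.5, 37.7 and 32 in the high tumors and 10.4, 16.3, 7.51, 7.64 and 1.66 in the low tumors, with 141, 233 and 309 in livers. All high tumors lay above all low tumors, and tumor 7 (6.55) lay among the low ones. Its log2 fold change was 3.05 ± 0.55 (SE, adjusted p = 0.33), and its slope 1.09 ± 0.10 (SE, adjusted p = 3.4e-04). Without tumor 10 the slope was 1.23 (adjusted p = 7.3e-04).

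Its neighbors on chromosome 19 followed. Cyp2c50 (chr19:40089679-40113955) measured 120.5, 225, 96.3, 68.5 and 58.3 in the high tumors and 38, 40.7, 20.7, 12.7 and 3.32 in the low tumors, Cyp2c54 (chr19:40037939-40073845) 10.2, 42.1, 21.4, 8.57 and 5.64 and 5.19, 3.26, 0, 0 and 0, and neither gene overlapped between the groups. Cyp2c29 (chr19:39287044-39330713) measured 906, 511, 276, 190.2 and 135 and 313, 106, 67.6, 40.7 and 11.6, where tumor 9 lay among the high tumors. Slopes were 0.89 ± 0.12, 0.96 ± 0.17 and 0.98 ± 0.13 (SE, adjusted p = 0.0059, 0.031 and 0.0037), and without tumor 10 the adjusted p were 7.3e-04, 0.001 and 0.024. These genes are close copies of each other, so reads may have been shared among them, and they are not independent measures. Unlike Glul, they were no higher in tumor 10 than in the highest liver, and its Cyp2c50 (120.5) and Cyp2c54 (10.2) lay below the lowest liver (310.0 and 13.1).

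Cyp1a2 (chr9:57676937-57683655), which oxidizes caffeine and aromatic amines, measured 604, 149.7, 112, 108 and 54.6 in the high tumors, 53.6, 74.9, 31.9, 17.8 and 4.99 in the low tumors and 136, 339.5 and 425 in livers. Its slope of 1.01 ± 0.10 (SE, adjusted p = 3.7e-04) kept its size without tumor 10 (0.98, adjusted p = 0.0096). Avpr1a, a vasopressin receptor, measured 159, 11.8, 8.92, 12 and 7.52 against 3.46, 3.26, 3.76, 2.55 and 4.99, without overlap, and Slco1b2, an uptake transporter for bile acids and drugs, measured 588, 165, 171, 94.2 and 58.3 against 98.6, 57, 56.4, 25.5 and 64.8. Both rose with Cyp2e1 over the 11 tumors (adjusted p = 0.033 and 0.021), but without tumor 10 their adjusted p were 0.23 and 0.2.

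Not every pericentral gene followed. Cyp2a5, a coumarin-oxidizing cytochrome, measured 2127, 665, 173, 449 and 154 in the high tumors and 963, 869, 1625, 591 and 769 in the low tumors, with 146, 353 and 553 in livers, and its slope was -0.02 ± 0.21 (SE, adjusted p = 1). It shares most of its sequence with Cyp2a4, with which it may share reads. Lect2 and Gulo, both counted as Wnt targets, had slopes of 0.80 ± 0.17 and 0.58 ± 0.13 (SE), which did not pass (adjusted p = 0.07 and 0.12), and were 0.40 and 0.29 without tumor 10.

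**Figure D3:**
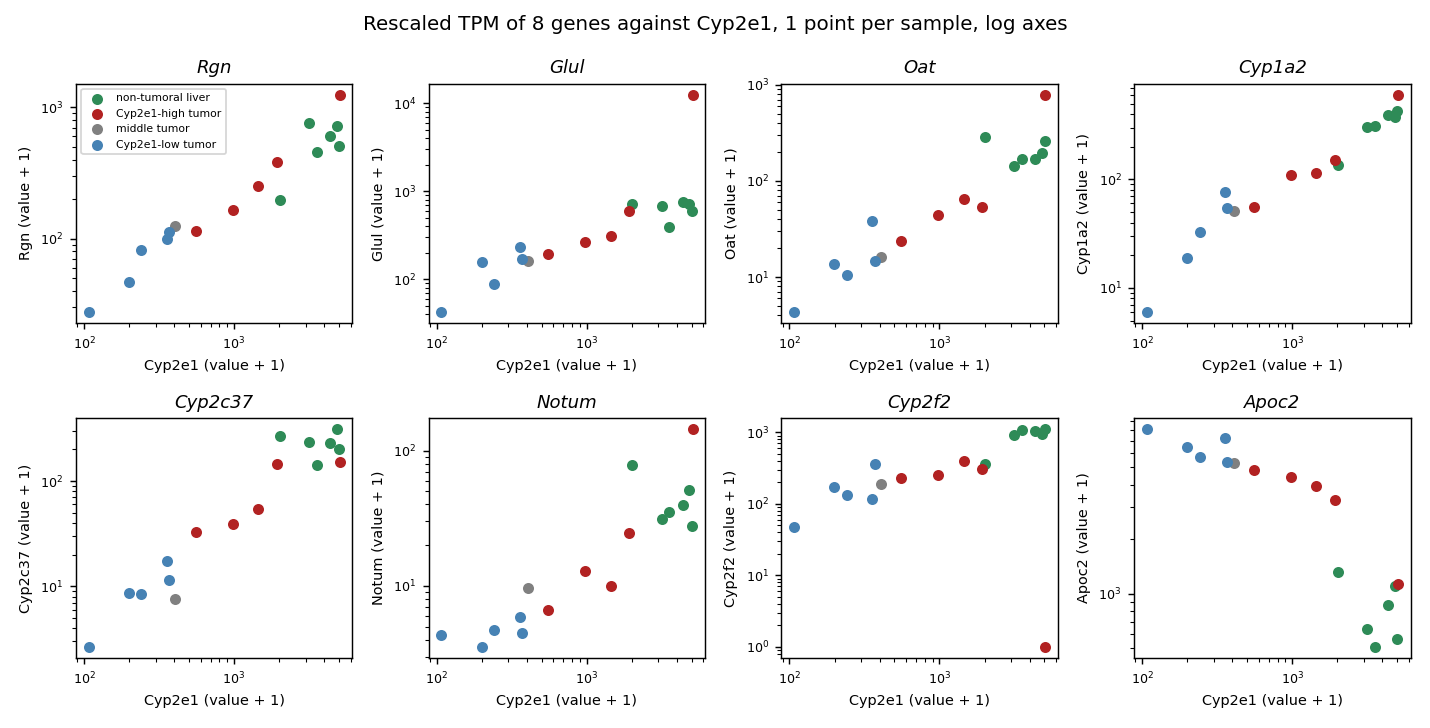
Rescaled TPM plus 1 of 8 genes (vertical log axes) against Cyp2e1 (horizontal log axes), 1 point per sample, colored by group. Rgn, Cyp1a2 and Cyp2c37 climb with Cyp2e1 through the tumors toward the livers, Apoc2 descends, and Glul and Cyp2f2 place tumor 10 far from the other high tumors.

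Periportal genes were not the mirror image of the pericentral ones. None of the 21 tested members passed the slope test over the 11 tumors, and none showed all high tumors on 1 side of the low tumors. G6pc1, given below and outside this list, is usually described as periportal and had every high tumor above every low tumor. Lack of overlap was a condition for naming G6pc1, so it cannot be set beside the members of the list. The median log2 fold change of the 21 was -0.53, and it turned to 0.36 without tumor 10. Without that tumor, Sds, Pigr and Etnppl had every high tumor above every low tumor, beside the 1.06% of all genes given above, and 1 member passed the slope test. Etnppl, a phospholyase of phosphoethanolamine, measured 0, 10.1, 21.4, 6.85 and 3.76 in the high tumors and 3.46, 3.26, 1.88, 2.55 and 1.66 in the low tumors, with a slope of 0.67 without tumor 10 (adjusted p = 0.049) and an adjusted p of 0.96 with it. Sds, Pigr and Etnppl were named here after their values were seen. Cyp2f2 measured 0, 309.6, 399, 252 and 228 in the high tumors and 363, 116, 129.6, 171 and 46.5 in the low tumors, against 363, 998 and 1099 in livers, so that the 4 high tumors other than tumor 10 lay within or above the low group. Its log2 fold change was -0.53 ± 1.41 (SE) and 1.11 without tumor 10. Hal, the first enzyme of histidine breakdown, measured 2.04, 87.5, 90.9, 105 and 86.5 and 95.1, 45.6, 47, 56 and 106, with 141, 171 and 243 in livers, and its log2 fold change moved from -0.50 ± 0.85 (SE) to 0.48. By contrast Hsd17b13 (chr5:103955442-103977388), a lipid droplet protein, measured 26.5, 281, 478, 651 and 406 in the high tumors and 458, 457, 596, 850.4 and 972 in the low tumors, and every ranked tumor but tumors 10 and 8 lay above the highest liver (327). Its slope was -0.69 ± 0.14 (SE, adjusted p = 0.07, and 0.34 without tumor 10). The neighboring gene Hsd17b11 (chr5:103989765-104021796), of the same enzyme family, rose with Cyp2e1, with 737, 178, 149.8, 119.9 and 90.3 in the high tumors and 77.8, 84.7, 67.6, 68.7 and 69.8 in the low tumors and a slope of 0.56 ± 0.08 (SE, adjusted p = 0.0078, and 0.03 without tumor 10).

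The order of whole lists over the tumors showed the same. Relative to the liver mean, the median Wnt target lay at 2.75 on the log2 scale in tumor 10. It lay between -1.59 and -0.12 in the other 4 high tumors and between -2.20 and -1.32 in low tumors. Pericentral enzymes lay at 1.05 in tumor 10, between -1.36 and -0.39 in those 4 and between -1.56 and -1.29 in low tumors. In both lists tumor 3 of the high group lay within the range of the low tumors. Periportal genes lay at -5.05 in tumor 10, between -0.45 and -0.26 in the other 4 high tumors and between -1.11 and -0.38 in the low tumors. Hepatocyte identity genes stayed between -0.50 and 0.18 in all 10 tumors.

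**Figure D4:**
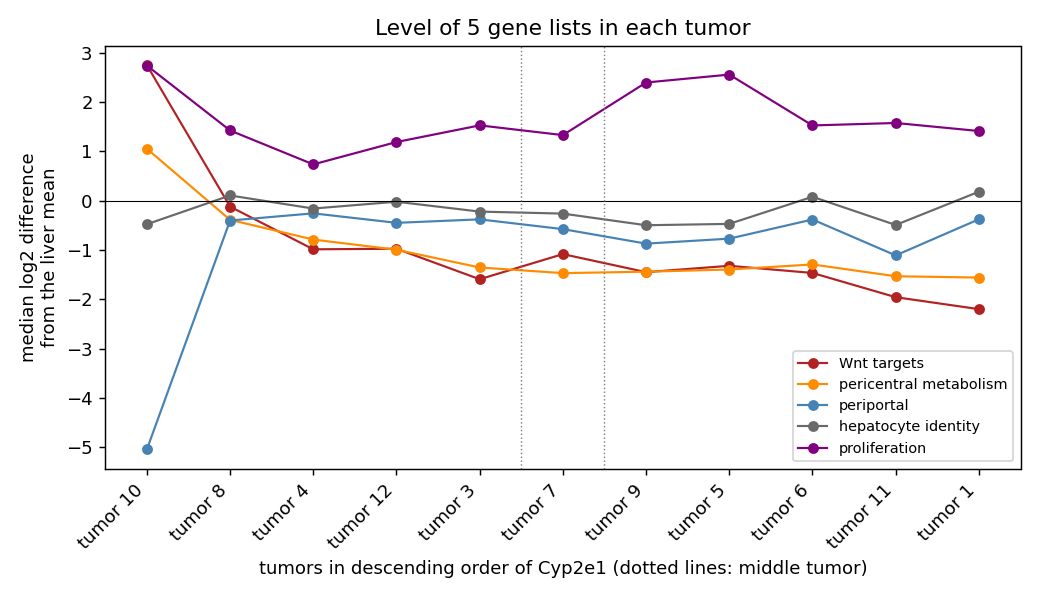
Median log2 difference from the liver mean (vertical axis) of 5 gene lists in each of 11 tumors in descending order of Cyp2e1 (horizontal axis). The Wnt targets go from 2.75 in tumor 10 to -2.20 in tumor 1, with tumor 3 (-1.59) among the low tumors. Periportal genes are at -5.05 in tumor 10 alone, and hepatocyte identity genes stay near 0.

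Several liver enzymes outside these lists also rose with Cyp2e1. Pon1, the serum paraoxonase, measured 414, 217, 182, 105 and 90.3 in the high tumors and 118, 63.5, 45.1, 22.9 and 36.6 in the low tumors, and its slope was 0.69 ± 0.08 (SE, adjusted p = 0.0015, and 0.023 without tumor 10). Ang, a secreted ribonuclease, measured 586, 94.2, 57.1, 48 and 41.4 and 20.8, 26, 37.6, 12.7 and 3.32, with a slope of 1.02 ± 0.11 (SE, adjusted p = 0.0012, and 0.023 without tumor 10). Rnase4, which shares its locus and first exons with Ang, passed as well, so the pair counts as 1 signal. Npr2, the receptor of C-type natriuretic peptide, measured 36.7, 30.3, 12.5, 18.8 and 5.64 and 1.73, 3.26, 5.64, 2.55 and 3.32 and rose with Cyp2e1 (adjusted p = 0.026), but did not pass without tumor 10 (adjusted p = 0.13). Abcb10, a mitochondrial transporter, had the same rank correlation as Rgn (rho 0.99), but at 10.2, 10.1, 8.92, 8.57 and 7.52 and 6.92, 6.51, 5.64, 5.09 and 4.99 its values rest on few whole units of the deposited table, and its slope did not pass (adjusted p = 0.13).

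Among genes of amino acid breakdown, Prodh was one that rose with Cyp2e1. Prodh, which starts proline breakdown, measured 63.3, 82.4, 49.9, 53.1 and 33.9 in the high tumors and 12.1, 24.4, 16.9, 10.2 and 18.3 in the low tumors, without overlap, and 135, 156 and 230.3 in livers. Together with Abhd15, it had the smallest adjusted p of the genes higher in the high group (log2 fold change 1.73 ± 0.27, SE, adjusted p = 0.19), and its slope passed (adjusted p = 0.032, and 0.052 without tumor 10). Hpd, an enzyme of tyrosine breakdown, measured 361, 760.4, 603, 409 and 224 and 249, 159.5, 115, 61.1 and 179, with 1268, 1643 and 1747 in livers, and did not pass (slope adjusted p = 0.15).

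Further genes were among those named for their lack of overlap between the groups. Abhd15, which takes part in insulin control of lipolysis, measured 26.5, 25.2, 28.5, 24 and 16.9 in the high tumors and 13.8, 8.14, 7.51, 7.64 and 9.97 in the low tumors (log2 fold change 1.29 ± 0.21, SE, adjusted p = 0.19). Suox, sulfite oxidase, measured 26.5, 50.5, 35.7, 32.6 and 26.3 and 17.3, 17.9, 11.3, 12.7 and 16.6 (log2 fold change 1.11 ± 0.21, SE, adjusted p = 0.33). G6pc1, the catalytic subunit that releases glucose from hepatocytes and is usually described as periportal, measured 141, 118, 98.1, 95.9 and 80.9 and 62.2, 22.8, 18.8, 33.1 and 46.5 (log2 fold change 1.62 ± 0.30, SE, adjusted p = 0.33). None of the 3 passed between the groups.

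Genes that fell with Cyp2e1 were fewer, and the 7 were Alox5, Apoc2, Cyp2a4, Esm1, Klrb1b, Lrrc8a and Pla2g2e. Apoc2 (chr7:19671579-19677941), the activator of lipoprotein lipase, measured 1135, 3276, 3952, 4410.0 and 4853 in the high tumors and 5321, 7254, 5662, 6477 and 8109 in the low tumors, without overlap, against 506, 753 and 1320.2 in livers. It had the lowest rank correlation with Cyp2e1 (rho -0.97) and a slope of -0.43 ± 0.07 (SE, adjusted p = 0.015, and 0.076 without tumor 10). Alox5, which makes leukotrienes, was listed at 0 in all livers and measured 2.04, 10.1, 10.7, 18.8 and 41.4 and 24.2, 44, 39.5, 25.5 and 86.4, and passed with and without tumor 10 (adjusted p = 0.0029 and 0.049). Esm1, a secreted proteoglycan of endothelium, measured 8.17, 8.41, 7.13, 12 and 13.2 and 13.8, 13, 16.9, 22.9 and 28.2, and also passed in both (adjusted p = 0.03 and 0.027). Cyp2a4, a steroid hydroxylase that female livers make more of than male livers, measured 594, 1179, 596, 1086 and 1708 and 1617, 1475, 2271, 2253 and 2301, against 41, 69.3 and 126 in these male livers (slope adjusted p = 0.029, and 0.13 without tumor 10).

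The smallest adjusted p between the groups belonged to Snora62, a small nucleolar RNA, which was listed at 0 in the 5 high tumors and measured 8.65, 3.26, 5.64, 2.55 and 4.99 in the low tumors, with 0, 9.96 and 21.3 in livers (adjusted p = 0.054). As its transcript is short and lacks a poly-A tail of its own, its values rest on few units in poly-A libraries. Itga6, a laminin receptor subunit, measured 10.2, 21.9, 16.1, 25.7 and 18.8 in the high tumors and 25.9, 42.3, 39.5, 53.5 and 43.2 in the low tumors (log2 fold change -1.12 ± 0.26, SE, adjusted p = 0.76), against at most 1.90 in livers. Ctsz, a lysosomal protease, measured 304, 239, 259, 295 and 331 and 405, 415, 468, 382 and 555 (log2 fold change -0.63 ± 0.16, SE, adjusted p = 0.96), and Mcl1, which protects against cell death, 223, 212, 180.1, 187 and 214 and 282, 295, 318, 272 and 263 (adjusted p = 0.96). All 4 genes had no overlap between the groups.

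**Figure D5:**
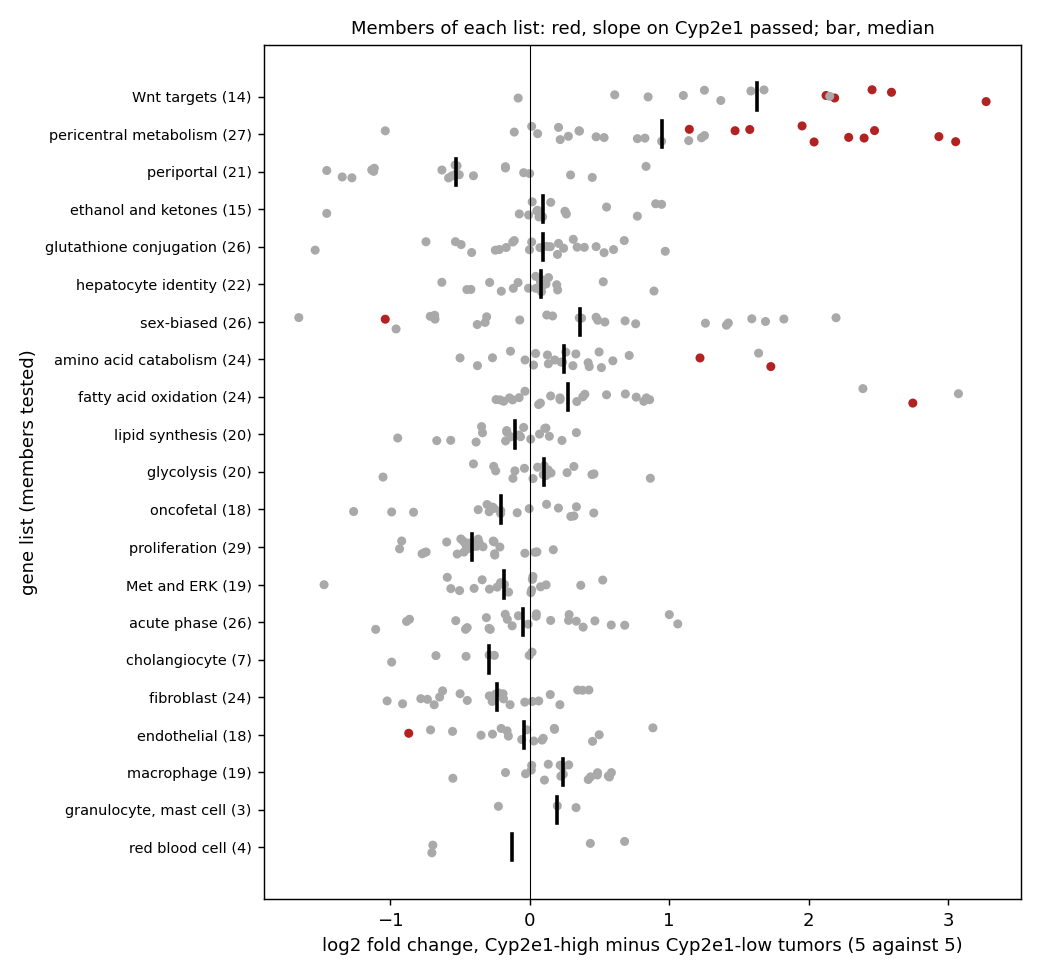
Log2 fold change of high against low tumors (horizontal axis) for each tested member of 21 lists (vertical axis, number tested in brackets), with a bar at the median. Red points passed the slope test on Cyp2e1. The lymphocyte list, with 2 members tested, is not drawn, and the medians of Wnt targets (1.63) and pericentral metabolism (0.95) lie farthest to the right.

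The pair from 1 mouse allowed a look within an animal, without a test. The tumors also differed in tag, E20 for tumor 12 and E19 for tumor 11, and Siglece took 24.4% and 53.4% of their deposited totals. Cyp2e1 was 977 in tumor 12 and 199 in tumor 11. In the same order, Cyp1a2 was 6.06 times, Cyp2c37 4.93 times, Rgn 3.59 times, Oat 3.36 times and Glul 1.66 times as high in tumor 12 as in tumor 11. Apoc2 in tumor 12 was 0.681 times that in tumor 11. With this mouse left out of the comparison of groups, limma called 0 genes, and 368 had an unadjusted p under 0.05. The slope fit was not rerun without this mouse, or with tag or age as a covariate. It treated both tumors as independent.

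How far did each group stand from the livers? Both comparisons used the same 6 livers and 1 estimate of the spread. In the high tumors 1235 of 13591 genes (9.09%) passed, 995 higher (7.32%) and 240 lower (1.77%). In the low tumors 2984 passed (22.0%), 1926 higher (14.2%) and 1058 lower (7.78%), so that 64.5% of the calls were higher, or 54.2% with a trimmed mean of M values. Without tumor 10, 5.96% of all genes were higher and 1.36% lower in the high tumors. Liver 1 had the lowest Cyp2e1 of the livers (2014) and their highest macrophage and cholangiocyte marker sums (844 and 859), and without it 1878 and 3776 genes passed. Then 10.8% of all genes were higher and 3.20% lower in the high tumors, and 18.9% and 9.16% in the low tumors. Of the 16 Wnt targets, 0 passed in the high tumors and 8 were lower in the low tumors (6 without liver 1), with medians of -0.08 and -1.53. Without tumor 10, 4 were lower in the high tumors and their median was -0.94. Of the 28 pericentral enzymes, 4 were lower in the high tumors and 18 in the low tumors (8 and 16 without liver 1), with medians of -0.55 and -1.24. Without tumor 10, 10 were lower in the high tumors and their median was -0.87.

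For single genes, Rgn differed from the livers by -0.74 on the log2 scale in the high tumors (adjusted p = 0.44) and by -2.93 in the low tumors (adjusted p = 6.6e-04). Cyp1a2 differed by -1.08 (adjusted p = 0.31) and -3.48 (adjusted p = 4.8e-04), and Oat by -1.35 (adjusted p = 0.25) and -3.94 (adjusted p = 4.3e-04). Tumor 10 was the highest of the high group in each of these genes and raised the mean of the group. Its Oat was 788, with 64.2 in the next high tumor, and the other high tumors all lay below the lowest liver. The differences of these genes from livers without tumor 10 are not given here. Cyp2c37 was lower than in livers in both groups, by -1.71 (adjusted p = 0.022) and -4.77 (adjusted p = 1.2e-06). A call in the low group without a call in the high group does not show that the groups differed, and the tests of that difference are those given above.

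Of 24 genes of amino acid breakdown, 14 were lower than in livers in the high tumors (10 without tumor 10) and 17 in the low tumors, beside 1.77% and 7.78% of all genes, and 0 were higher in either. Of 24 genes of fatty acid oxidation, 0 were lower in the high tumors and 10 in the low tumors, and 3 were higher in each, namely Fgf21, Vnn1 and Plin2, beside 7.32% and 14.2% of all genes. Without liver 1, 6 and 13 were lower, beside 3.20% and 9.16% of all genes. Cyp4a14, a fatty acid hydroxylase controlled by PPARα, measured 57.2, 89.2, 41, 77.1 and 0 in the high tumors and 5.19, 9.77, 0, 5.09 and 0 in the low tumors, against 28.6, 164 and 431 in livers. Its difference between the groups was 3.07 ± 1.17 (SE, adjusted p = 0.96), and tumor 3 was listed at 0. Of 21 periportal genes, 1 was higher and 1 lower in the high tumors, and 3 and 3 in the low tumors, with medians of -1.25 and -0.75. Without tumor 10, 3 were higher and 4 lower in the high tumors and the median was -0.40. Cdh1, E-cadherin, was higher in both, with 91.9, 77.4, 94.5, 99.4 and 99.7 and 102, 132, 69.5, 125 and 105 against 5.71, 11 and 31.1 in livers.

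The driver did not separate the groups. Met measured 267, 172, 237, 254 and 243 in the high tumors and 199, 194, 314, 272 and 344 in the low tumors, with 26.8, 46.7 and 77.7 in livers, and differed between the groups by -0.15 ± 0.21 (SE, adjusted p = 1). Against livers it was higher by 2.25 (adjusted p = 7.5e-06) and 2.40 (adjusted p = 2.0e-06). How reads of the chimeric transgene were counted is not given in the sources used here.

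Markers of other cells overlapped between the groups. Summed fibroblast markers (25 genes) lay between 294 and 1137 in the high tumors, between 469 and 969 in the low tumors and between 235 and 295 in livers. Endothelial markers (20 genes) lay between 190 and 399, 261 and 367, and 191 and 321, macrophage markers (20 genes) between 234 and 759, 143 and 668, and 288 and 844. Cholangiocyte markers (13 genes) reached 687 to 1311 and 565 to 2798, of which Spp1, Krt8 and Krt18 made up most, the keratins being those of hepatocytes too, while Krt19 reached at most 2.04 and Krt7 at most 3.76 in any of the 10 tumors. Clec4f of Kupffer cells and Clec4g of sinusoidal endothelium were listed at 0 in tumor 10 and above 0 in the other 9. Lymphocyte markers (17 genes) summed to 5.14 to 53.1 and 2.55 to 43.9, granulocyte and mast cell markers (14 genes) to 3.37 to 127 and 0 to 11.3, and red blood cell markers (6 genes) to 33.6 to 127 and 24.2 to 63.6. In the high group, tumor 10 gave the highest sum in every list but the endothelial. The part of these cells in the differences was not tested, beyond their mean level as a covariate, with which 3 genes passed between the groups.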

How the data were processed

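Bulk RNA-seq values of 10 Alb-R26Met tumors, ranked by Cyp2e1, and of 6 livers were used. The authors sequenced poly-A RNA on a NovaSeq X, mapped reads to GRCm38 (mm10), ran Salmon for quantification and expressed the results as TPM. The submitters' processing notes also name edgeR, without a role. The study calls its table per sample raw counts. Each deposited value is a whole number (a score), read here as TPM that the authors rounded, since totals lie between 835144 and 907513 per sample. The reads behind a value are unknown, so no counting intervals are given.

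Siglece and Gm26917, which took 27.5% to 55.4% of the totals of the 16 samples, were dropped and each sample was rescaled. The fit was made by limma 3.58.1 (R 4.3.3, trended prior) on log2(value + 1) and kept genes that reached 1 in 5 or more of its samples. Fold changes on this scale understate changes of low genes. Benjamini-Hochberg adjusted p-values under 0.05 counted as passed, and adjustment was over all genes tested. Tests compared 5 high with 5 low tumors, log2 Cyp2e1 as a slope over 11 tumors, and each group with the livers in 1 fit of 16 samples. The slope was an alternative set beside the comparison of groups. The labels do not say more of how tumors were sampled, so p-values measure the spread between these tumors. The fit was tested on simulated data.

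Members and lists were chosen with earlier results of these data known, which gives no independent support to patterns already seen. Named genes were those of each direction with the smallest p and no overlap between groups, the outermost and all zonated members of the lists, and those ranked most and least like Cyp2e1. Alox5, Hamp, Id1, Id2, Id3, Smad6, Smad7, Smad9, Atoh8, Klrb1b, Pla2g2e, Npr2 and Rnase4 were chosen after their values were seen. Deviations of same-numbered livers and tumors correlated by -0.126 to 0.441 over 5 numbers, 3 of them above 0.1. As not every pair did so and no label ties the numbers to a shared mouse, litter or day, they were not taken to pair samples. Python 3.11.15, numpy 2.4.6, pandas 2.3.3, scipy 1.17.1 and matplotlib 3.10.9 were used. Gene positions came from RefSeq for GRCm38.p6. Some results are not reported here.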

Additional observations from a re-analysis of the deposited data

Results flagged for a closer look

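In each group of 5 tumors and in the 6 livers, the gap between the outermost sample and its neighbor was divided by the group's range on the log2 scale. Of 161 such groups examined, 20 were beyond Dixon's limit, where about 1 in 20, or 8.05, would be by chance. That figure takes the groups as independent. Genes that vary together count the same sample repeatedly, and some were chosen after their values were seen, so the excess was not tested. Tumor 10 accounted for 12 of the 20. Among the high tumors it was far above the others in Glul (ratio 0.728), Oat (0.7102), Slc1a2 (0.773), Nkd1 (0.820), Rhbg (0.970) and Avpr1a (0.856). It was far below them in Cyp2f2 (0.907), Hal (0.947), Hsd17b13 (0.735), Aldh1b1 (0.868), Apoc2 (0.729) and Hamp (0.731). In the same group tumor 3 was lowest in Cyp4a14 (0.830) and tumor 8 lowest in Met (0.729). Among the livers, liver 1 was lowest in Cyp1a2 (0.709), Cyp2f2 (0.824), Cyp7b1 (0.672) and G6pc1 (0.700), liver 2 lowest in Glul (0.647), and liver 5 lowest in Itga6 (0.904). In tumor 2, which the comparisons do not use, Siglece took 82.86% of the deposited total, above the highest share of a liver (29.55%).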

How the results depend on the processing

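Between the groups limma called 0 genes. It called 1 with a trimmed mean of M values, with a pseudocount of 0.5 and without a filter on low values. The highest 4 against the lowest 4, and the highest 3 against the lowest 3, also gave 1 each. With the mean level of fibroblast, endothelial, macrophage and lymphocyte markers as a covariate it called 3. Log2 Cyp2e1 as a continuous measure gave 49, and 28 with tumor 10 left out. Leaving out 1 tumor gave 0 to 3 calls, the 3 without tumor 10. For high tumors against livers (1235 calls), leaving out 1 sample gave 876 to 1878 calls, the most without liver 1. For low tumors against livers (2984 calls), it gave 2339 to 3776. The trimmed mean moved the share of higher calls in low tumors from 64.5% to 54.2%. Livers and tumors numbered 1 to 6 gave 572 and 1927 calls without a block, and 130 and 858 with the replicate block, in which the number pairs samples in name only. The log2 fold change of Cyp2f2 reversed to 1.83 in E20 tumors alone, 0.23 with sample quality weights and 1.11 without tumor 10. With the continuous measure and no tumor 10 its sign reversed too, with a slope of 0.56 per log2 unit of Cyp2e1. Under the same settings Hal reversed to 0.43, 0.19 and 0.48, with a slope of 0.11. Met reversed to 0.18 in E19 tumors alone, and Hamp to -1.39 in these and -0.089 without tumor 8. The slope of Hamp with the continuous measure was -0.16. With each tumor left out in turn, Cyp2f2 lay between -1.05 and 1.11, Hal between -0.80 and 0.48 and Hamp between -0.089 and 2.45. The cause was not tested, except that tumor 10 is left out or weighted down where named, and the E20 tumors alone lack it too. Of the 52 genes run under these settings, no other reversed, and the other genes named were not run. List counts without liver 1 were added after seeing the data. Averaging the tumors of 1 mouse did not apply, as they lie in opposite groups. The settings left out tumor 2 unless all 12 were ranked, and rounding to whole units limits genes with values under about 5.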

Other observations

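Of 29 tested proliferation genes, 14 were higher than in livers in the high tumors (10 without tumor 10) and 26 in the low tumors, where 1 was lower, beside 7.32% and 14.2% of all genes higher, and their median log2 fold change of high against low tumors was -0.42 (-0.67 without tumor 10), with 0 passing between the groups. Of 18 oncofetal genes, 9 and 10 were higher than in livers and 0 lower. Afp, the fetal form of albumin, measured 335, 74, 26.8, 42.8 and 75.2 in the high tumors and 118, 122, 84.5, 78.9 and 66.5 in the low tumors and at most 4.91 in livers. Spp1, osteopontin, measured 182, 193, 353, 456 and 198 and 491, 415, 779.7, 1823 and 119.6, against 8.89, 15 and 22.9 in livers. Sox4, a progenitor factor, measured 8.17, 6.73, 3.57, 5.14 and 18.8 and 22.5, 14.7, 24.4, 25.5 and 11.6 (log2 fold change -1.26 ± 0.37, SE, adjusted p = 0.96). Of 20 genes of lipid synthesis, 7 were higher than in livers in the high tumors (5 without tumor 10) and 11 in the low tumors. Liver 1 stood apart in this list, its median gene lying 1.88 above the liver mean on the log2 scale, against -0.60 to 0.06 in the other 5 livers. Without liver 1, 14 and 14 were higher, beside 10.8% and 18.9% of all genes.

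Of 26 tested genes with a sex bias in liver, 4 were lower and 1 higher than in livers in the high tumors, and 7 and 2 in the low tumors, beside 1.77% and 7.32%, and 7.78% and 14.2%, of all genes. Liver 1 stood apart here too, with its median gene at -1.43, against 0.05 to 0.36 in the other livers. Without it, 11 were lower and 3 higher in the high tumors, and 15 and 3 in the low tumors. Of all genes, 3.20% were then lower and 10.8% higher in the high tumors, and 9.16% and 18.9% in the low tumors. Cyp7b1, an oxysterol hydroxylase of male livers, measured 16.3, 67.3, 57.1, 32.6 and 45.1 in the high tumors and 13.8, 19.5, 26.3, 5.09 and 4.99 in the low tumors, against 34.4, 166 and 240.1 in livers, and its slope on Cyp2e1 passed without tumor 10 (0.84, adjusted p = 0.024) but not with it (adjusted p = 0.41). Elovl3, a fatty acid elongase, measured 2.04, 10.1, 25, 92.5 and 58.3 and 5.19, 3.26, 5.64, 12.7 and 0. Targets of BMP signaling were named after their values were seen. Hamp, hepcidin, measured 2.04, 3459, 2201, 941 and 519 in the high tumors, 391, 1636, 158, 96.7 and 106 in the low tumors and 5274, 7598 and 10210.0 in livers, and rose with Cyp2e1 without tumor 10 (slope 1.24, adjusted p = 0.023), as did Id3 (0.50, adjusted p = 0.04) and Smad9 (0.77, adjusted p = 0.031). With tumor 10, where Hamp was 2.04, their adjusted p were 0.98, 0.68 and 0.75. Id1, Id2, Smad6, Smad7 and Atoh8, which belong to the same group of targets, did not pass in either (without tumor 10, adjusted p = 0.094, 1, 0.26, 0.32 and 0.6).

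The 42 genes that rose with Cyp2e1 included 33 with a promoter in the RefSeq table, and 8 of these (24.2%) held the letters of a TCF/LEF site, beside 9.88% of 27025 genes with any promoter in the table. This is a description of letters, with no test, and some of the 33 are close copies of each other. Tumor 2, which was not ranked, had a Cyp2e1 of 329, which lies within the range of the low tumors. The effect of Cyp2e1 group in tumors tagged E19 and E20 was compared by an interaction term in limma, with 0 genes past the adjusted threshold and 303 with an unadjusted p under 0.05.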
